A study of Mus musculus with 50 samples.

Results

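The CC chemokines are small secreted proteins that attract leukocytes through G protein-coupled receptors, and 10 of their genes were followed here in hippocampal microglia: Ccl2, Ccl3, Ccl4, Ccl5, Ccl6, Ccl7, Ccl9, Ccl12, Ccl24 and Ccl25. They were chosen by gene symbol in the count files, as 10 of 53700 genes listed there, and all 10 were expressed highly enough to be tested. Poly-A RNA had been sequenced from 50 male C57BL/6J mice, 1 library per mouse. Early-life stress (ELS) consisted of limited bedding and nesting material from postnatal day (P) 2 to P9, and control (CTR) litters had standard cages. Microglia came from both hippocampi after saline perfusion, and were sorted as viable CD45int CD11b+ cells. Myelin was removed with Percoll from the adult tissue but not from the P9 tissue.

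The groups were P9-CTR (n = 12 mice) and P9-ELS (n = 13), killed at P9 with no injection, and 4 groups killed at P200, 3 h after 1 intraperitoneal injection. P200-CTR-PBS (n = 7) and P200-ELS-PBS (n = 6) mice received phosphate-buffered saline (PBS). P200-CTR-LPS (n = 7) and P200-ELS-LPS (n = 5) mice received 1 mg/kg of lipopolysaccharide (LPS), a cell wall component of Gram-negative bacteria that stimulates innate immune cells through Toll-like receptor signalling. ELS was given to whole litters, and the labels do not name the litter of a mouse. The number after the age in each label (19 in P9_19.2_ELS) was read as the nest, which is an inference, and by it the 13 P9-ELS mice came from 4 nests and the mice of each other group from 5. The sorted gate can hold other myeloid cells of the brain, and only males were studied, at 1 time after the injection.

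In the brain, microglia are a main source of several CC chemokines, which are secreted during inflammation and act on monocytes, T cells and on the microglia themselves. Ccl2, Ccl7 and Ccl12 encode ligands of CCR2, the receptor that draws monocytes out of the bone marrow and into inflamed tissue. Ccl3, Ccl4 and Ccl5 encode inflammatory chemokines that attract T cells and monocytes, and Ccl3 and Ccl5 act on CCR1. Ccl6 and Ccl9 encode rodent ligands of CCR1 that myeloid cells make without stimulation. Ccl24 encodes an eosinophil attractant that acts through CCR3, and Ccl25 a ligand of CCR9 that guides thymocytes and gut-homing T cells.

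On GRCm39, 8 of the 10 genes lie on chromosome 11, in 2 runs of neighbours. The CCR2 ligand genes sit together on the plus strand, with Ccl2 (ENSMUSG00000035385) at chr11:81926397-81928279, Ccl7 (ENSMUSG00000035373) at chr11:81936532-81938351 and Ccl12 (ENSMUSG00000035352) at chr11:81992645-81994466. Further along lie Ccl5 (ENSMUSG00000035042) at chr11:83416602-83425942, Ccl9 (ENSMUSG00000019122) at chr11:83463745-83473161, Ccl6 (ENSMUSG00000018927) at chr11:83478708-83483913, Ccl3 (ENSMUSG00000000982) at chr11:83538670-83540191 and Ccl4 (ENSMUSG00000018930) at chr11:83553383-83555509. In that run only Ccl4 is on the plus strand. Ccl24 (ENSMUSG00000004814) is at chr5:135598668-135601905 on the minus strand, and Ccl25 (ENSMUSG00000023235) at chr8:4374661-4540760 on the plus strand. The annotated exons of Ccl25 overlap those of Elavl1, an RNA-binding protein gene on the other strand, and those of Ccl3 overlap an antisense long non-coding RNA. The strand setting of the counting was not given in the sources used here, so that reads of these pairs may not be separable.

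RefSeq promoter sequence was at hand for 5 of the 10 members, on build GRCm38.p6, and the 250 bases before the annotated start are shown for 4 of them. They are Ccl12, Ccl3 and Ccl9, which rose after LPS, and Ccl6, which did not pass the test. Capitals mark matches to 4 motifs of factors that act in LPS responses, searched on both strands: the kappaB consensus of NF-kB, a loose AP-1 form (TGANTCA), the STAT consensus (TTC, 3 bases, GAA) and the interferon-stimulated response element (GAAA, 2 bases, GAAA). In the AP-1 form the middle letter, N, could be any base. The windows are, in the order shown, chr11:82101595-82101844 (plus strand), chr11:83649379-83649628 (minus strand), chr11:83578637-83578886 (minus strand) and chr11:83593088-83593337 (minus strand).
Ccl12: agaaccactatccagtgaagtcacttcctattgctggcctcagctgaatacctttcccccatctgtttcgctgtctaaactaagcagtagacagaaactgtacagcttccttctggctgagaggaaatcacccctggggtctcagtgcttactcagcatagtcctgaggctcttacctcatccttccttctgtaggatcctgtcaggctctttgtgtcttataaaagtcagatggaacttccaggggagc
Ccl3: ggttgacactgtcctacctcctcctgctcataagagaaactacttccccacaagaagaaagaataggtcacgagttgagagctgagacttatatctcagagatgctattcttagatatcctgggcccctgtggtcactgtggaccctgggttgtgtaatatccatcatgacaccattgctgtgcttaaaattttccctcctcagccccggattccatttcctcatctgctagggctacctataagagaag
Ccl9: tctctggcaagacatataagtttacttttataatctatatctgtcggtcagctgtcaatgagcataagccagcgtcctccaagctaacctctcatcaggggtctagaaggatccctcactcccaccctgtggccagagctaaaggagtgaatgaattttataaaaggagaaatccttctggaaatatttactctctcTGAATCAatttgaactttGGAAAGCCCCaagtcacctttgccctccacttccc
Ccl6: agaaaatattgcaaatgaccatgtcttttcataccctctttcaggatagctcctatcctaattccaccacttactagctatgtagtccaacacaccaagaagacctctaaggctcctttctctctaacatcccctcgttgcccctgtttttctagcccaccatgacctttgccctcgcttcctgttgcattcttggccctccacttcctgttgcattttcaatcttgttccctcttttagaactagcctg
Of these 4 windows, only that of Ccl9 held a match. Its match to the loose AP-1 form, TGAATCA with A as the free base, lay 53 to 47 bases before the start. The kappaB match, on the other strand, lay 35 to 26 bases before the start, without overlap between them. The 2 annotated starts of Ccl25 held none. Among all 32851 windows of this length, 7.25% held the kappaB consensus, 6.75% the loose AP-1 form, 7.02% the STAT consensus and 2.98% the interferon-stimulated response element. A match is a description of letters, and its absence says only that these letters are not in this window.

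Sequencing gave 5152838 to 42231258 counts per mouse (median 19960409.5), and 16696 genes passed the filter on low counts. Microglia markers were present in every mouse, with P2ry12 between 4321 and 20370 CPM (counts scaled to the library size) and Tmem119 between 180.0 and 12060 CPM. Of the other defining markers, Ccr2 was at most 10.7 CPM, S100a8 at most 2.58 CPM and Cd3e at most 0.239 CPM in any mouse. Mrc1, a marker of border-associated macrophages, was at 461 to 910.1 CPM at P9 and at 1.03 to 9.41 CPM at P200. The 3 mice with the fewest detected genes were mouse P9_19.3_ELS (12482), mouse P200_1.1_CTR_PBS (12854) and mouse P9_19.2_ELS (15731). Mouse P9_19.2_ELS was also the highest of its group in P2ry12 and the lowest in Tmem119. In sorted bulk samples, fewer cells of a type and less RNA per cell cannot be told apart.

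Of the 10 genes, 7 rose 3 h after LPS, in CTR and in ELS mice alike, and none fell. With counts summed per inferred nest, 5 were called in CTR, without Ccl3 and Ccl9, and 7 in ELS. They were the CCR2 ligands Ccl2, Ccl7 and Ccl12, the inflammatory chemokines Ccl3, Ccl4 and Ccl5, and Ccl9. The largest fold changes were those of Ccl12, Ccl5 and Ccl2, and the smallest was that of Ccl9. All comparisons came from 1 edgeR model of the 6 group means (quasi-likelihood test). A gene was called where its Benjamini-Hochberg adjusted p lay below 0.05 and its log2 fold change exceeded 1 in size. By this rule 6.02% of all tested genes were called higher and 3.60% lower after LPS in CTR, and 4.69% higher and 3.17% lower in ELS. The median log2 fold change of the 10 genes was 2.06 in CTR, against 0.01 over all genes tested, and 3.35 in ELS, against -0.04.

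**Figure D1:**
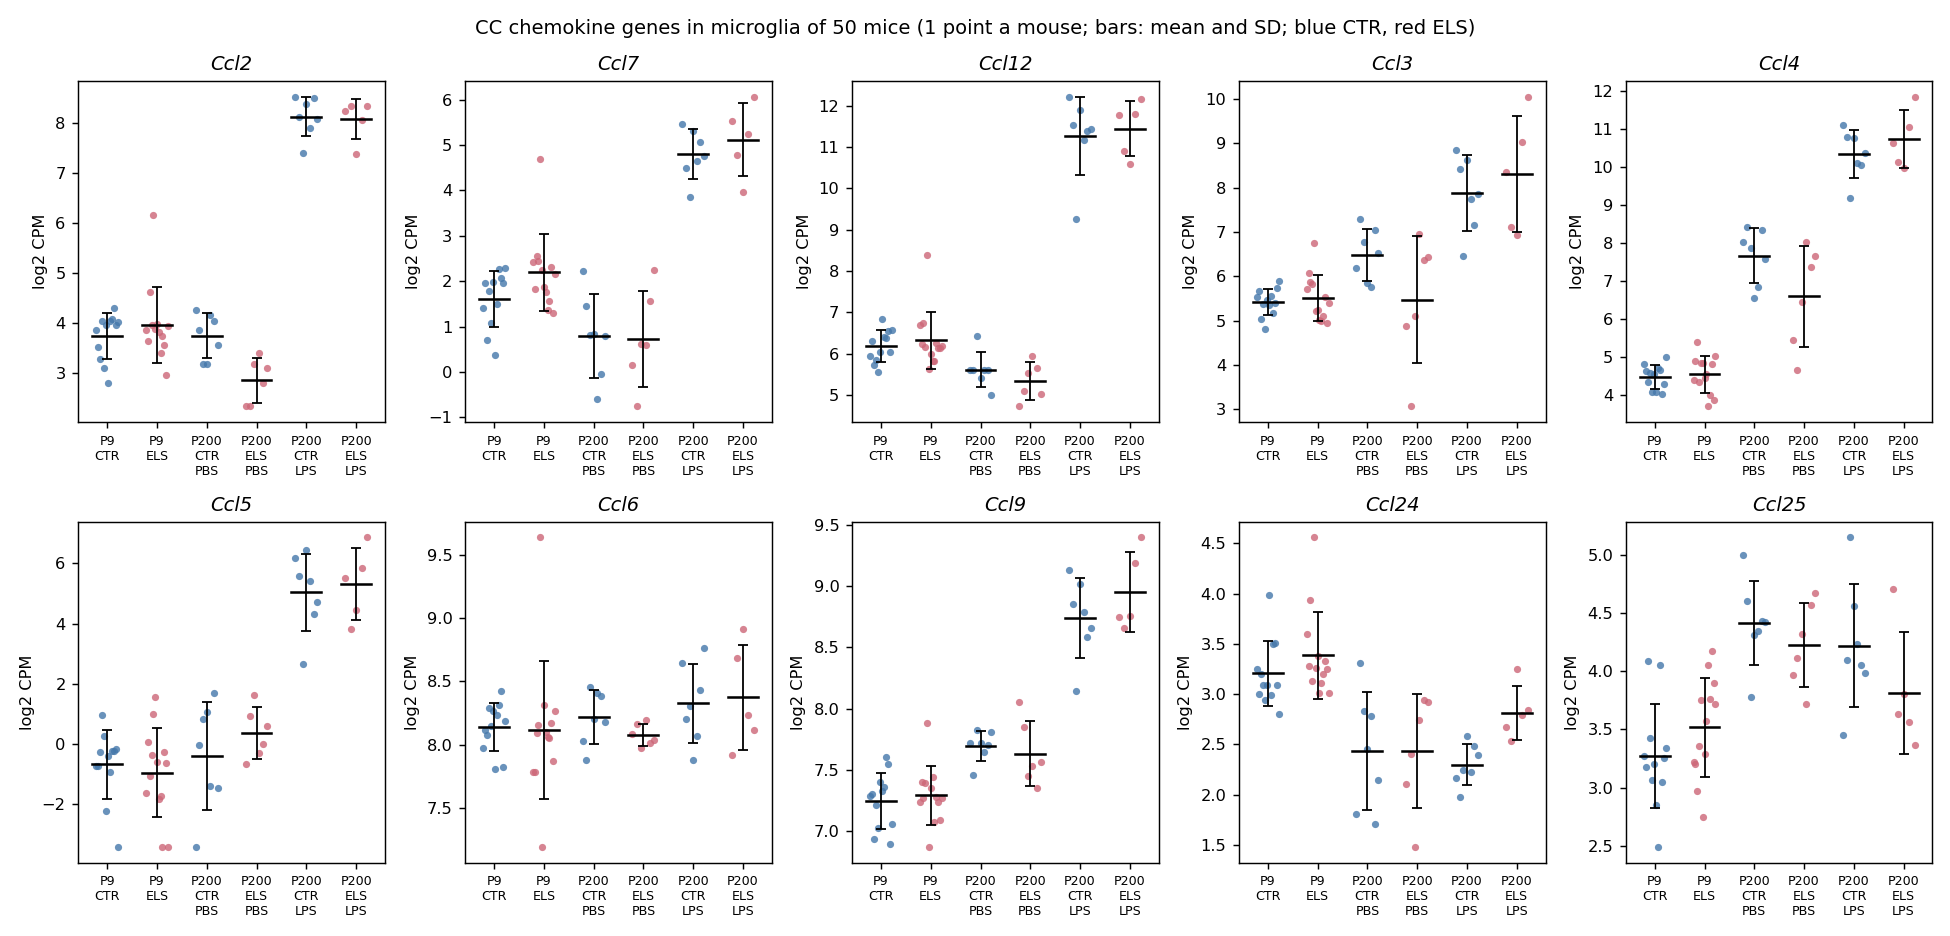
Log2 CPM of each of the 10 genes in every mouse, in 6 groups on the x axis, with 1 point per mouse (blue CTR, red ELS) and the group mean and SD in black. Ccl2, Ccl7, Ccl12, Ccl4, Ccl5 and Ccl9 of the LPS-injected mice lie above all PBS-injected mice of their condition, and 1 P9-ELS mouse stands above its group in several panels.

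Ccl12, the mouse monocyte attractant with the highest level after LPS, was between 32.1 and 86.1 CPM (median 48.5) in CTR-PBS mice and between 26.4 and 62.1 CPM (median 40.3) in ELS-PBS mice. In CTR-LPS mice it was between 616 and 4719 CPM (median 2789), and the 5 ELS-LPS mice were at 1540, 1902, 3489, 3567 and 4583 CPM. The lowest LPS mouse was thus far above the highest PBS mouse in both conditions. The increase was 56.0-fold in CTR (95% interval 32.4 to 96.6, log2 fold change 5.81, SE 0.39, adjusted p = 5.97e-17 in edgeR's quasi-likelihood test). In ELS it was 71.8-fold (95% interval 39.2 to 131.5, log2 fold change 6.165, SE 0.435, adjusted p = 3.35e-16).

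Ccl2, which encodes the main CCR2 ligand, was between 8.94 and 19.13 CPM (median 14.3) in CTR-PBS mice and between 4.91 and 10.4 CPM (median 7.64) in ELS-PBS mice. CTR-LPS mice ranged from 171 to 372 CPM (median 278), and the ELS-LPS mice were at 167.5, 269, 306.5, 326 and 328 CPM. Again no LPS mouse came near a PBS mouse. Ccl2 rose 20.9-fold in CTR (log2 fold change 4.39, SE 0.35, adjusted p = 1.4e-14 in edgeR's quasi-likelihood test) and 37.8-fold in ELS (log2 fold change 5.24, SE 0.395, adjusted p = 3.32e-15). Ccl7, its neighbour and a further CCR2 ligand, was low before LPS, at 0.570 to 4.58 CPM (median 1.67) in CTR-PBS and 0.498 to 4.62 CPM (median 1.43) in ELS-PBS mice. After LPS it was at 14.3 to 43.9 CPM (median 26.8) in CTR and at 15.5, 27.2, 37.7, 46.3 and 66.9 CPM in ELS. No mouse of one treatment reached into the range of the other. For Ccl7 the log2 fold change was 3.90 (SE 0.49, adjusted p = 1.51e-08) in CTR and 4.30 (SE 0.55, adjusted p = 2.53e-08) in ELS.

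Ccl4, an attractant of monocytes and T cells, was among the most abundant of the 10 genes per transcript length in PBS-injected mice. It was between 93.4 and 339 CPM (median 233) in CTR-PBS mice and between 25.1 and 258 CPM (median 126) in ELS-PBS mice. LPS brought it to between 583 and 2192 CPM (median 1318) in CTR and to 1003, 1119, 1575, 2105 and 3672 CPM in the ELS mice. No LPS mouse overlapped a PBS mouse of its condition. Its log2 fold change was 2.64 in CTR (SE 0.35, adjusted p = 5.02e-08 in edgeR's quasi-likelihood test) and 3.865 in ELS (SE 0.40, adjusted p = 1.19e-10).

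Ccl3, whose product acts on CCR1, was the called gene whose groups overlapped. It was between 53.8 and 156 CPM (median 91.8) in CTR-PBS and between 87.8 and 462 CPM (median 233) in CTR-LPS mice. In ELS it was between 8.29 and 124.6 CPM (median 58.8) after PBS, and at 123, 139, 329, 524 and 1063 CPM after LPS. The lowest ELS-LPS mouse was slightly under the highest ELS-PBS mouse, and in CTR the overlap was wider. The log2 fold change was 1.48 in CTR (SE 0.39, adjusted p = 0.00528 in edgeR's quasi-likelihood test) and 2.84 in ELS (SE 0.45, adjusted p = 4.36e-06). With counts summed per inferred nest, the adjusted p of Ccl3 in CTR was 0.0729, at a log2 fold change of 1.43.

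Ccl5, an attractant of T cells, was among the lowest members before LPS. It had 0 counts in 1 of 7 CTR-PBS mice and at most 3.16 CPM (median 0.874), and in ELS-PBS mice it was between 0.536 and 3.00 CPM (median 1.16). After LPS the CTR mice ranged from 6.15 to 86.3 CPM (median 42.3), and the ELS mice were at 14.0, 22.0, 45.7, 57.8 and 116.5 CPM. Every LPS mouse was above every PBS mouse of its condition. The log2 fold change was 5.18 in CTR (SE 0.74, adjusted p = 3.77e-07, edgeR) and 5.201 in ELS (SE 0.81, adjusted p = 2.79e-06), with 95% intervals of 12.9- to 101.9-fold and 11.9- to 113.6-fold.

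The CCR1 ligand genes Ccl6 and Ccl9 lie next to each other, and Ccl9 but not Ccl6 passed the test after LPS, a difference between the genes that was not itself tested. Ccl9 was between 176 and 227 CPM (median 211) in CTR-PBS and between 163 and 267 CPM (median 187) in ELS-PBS mice. LPS-injected CTR mice had 283 to 559.8 CPM (median 442) of Ccl9, and the ELS mice 404, 430.4, 432, 585 and 675.5 CPM. The groups did not overlap, and Ccl9 had the smallest increase of the called genes, with a log2 fold change of 1.07 in CTR (SE 0.14, adjusted p = 3.55e-08 in edgeR's quasi-likelihood test) and 1.33 in ELS (SE 0.16, adjusted p = 3.46e-09). In CTR this lies close to the threshold of 1, and without mouse P200_1.2_CTR_LPS it was 0.997 (adjusted p = 3.01e-07). With counts summed per inferred nest it was 0.984 (adjusted p = 6.42e-05), again below the threshold. Ccl6 was between 236 and 352 CPM (CTR) or 251 and 292 CPM (ELS) after PBS. After LPS it was between 236 and 434 CPM in the CTR mice, and at 242, 277, 301, 410.5 and 483 CPM in the ELS-LPS mice. Its log2 fold change was 0.12 in CTR (95% interval -0.27 to 0.52, adjusted p = 0.767) and 0.34 in ELS (95% interval -0.10 to 0.79, adjusted p = 0.361).

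Ccl24 and Ccl25 did not pass the test after LPS either. Ccl24 was between 3.16 and 9.85 CPM in CTR-PBS and between 3.85 and 5.91 CPM in CTR-LPS mice, a log2 fold change of -0.23 (95% interval -0.73 to 0.27). In ELS mice it was between 2.69 and 7.57 CPM after PBS and between 5.675 and 9.40 CPM after LPS, and the log2 fold change was 0.33 (95% interval -0.24 to 0.89). Ccl25 had a log2 fold change of -0.15 in CTR and -0.365 in ELS, and the edgeR quasi-likelihood adjusted p was 0.777 and 0.458, respectively. The intervals of these genes reach beyond a log2 difference of 0.5 in at least 1 direction, so that differences of that size lie within them.

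**Figure D2:**
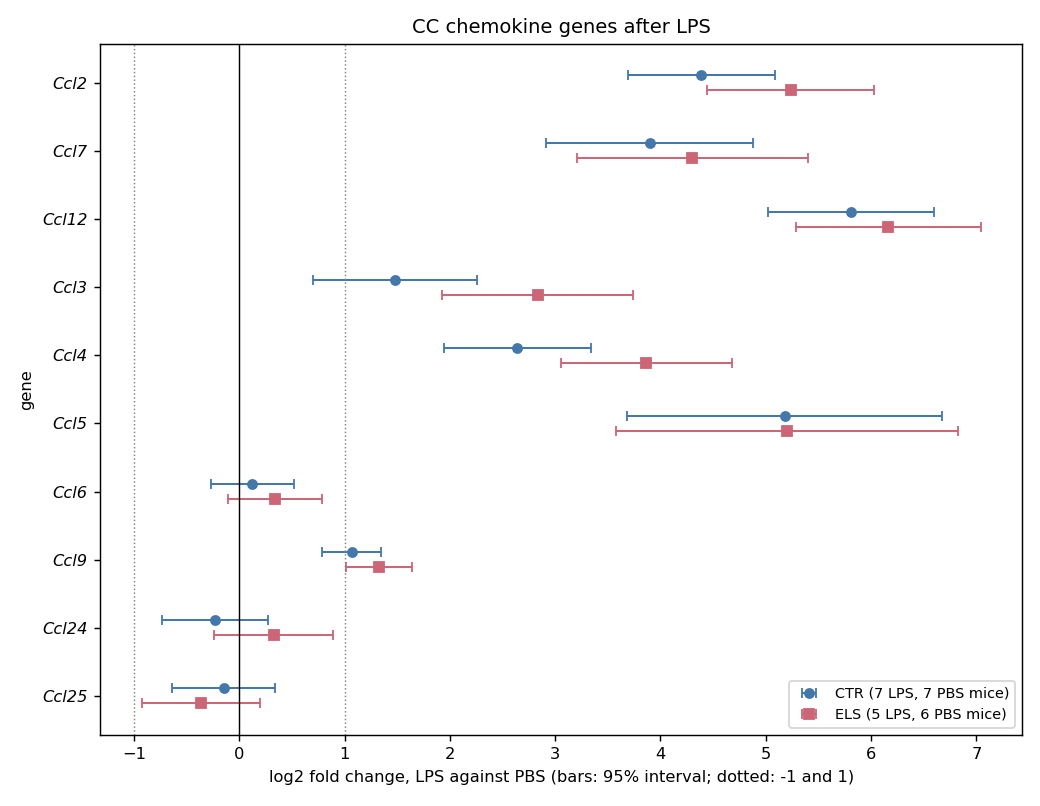
Log2 fold change after LPS of each gene (y axis) in CTR (blue circles) and ELS mice (red squares), with 95% intervals from edgeR's quasi-likelihood fit and dotted lines at -1 and 1. Ccl12 lies farthest to the right at 5.81 and 6.165, and Ccl6, Ccl24 and Ccl25 lie around 0 in both conditions.

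For 6 of the 10 genes the LPS and PBS groups did not overlap, with LPS higher, in CTR and in ELS. Over all tested genes this held for 4.92% in CTR and 5.65% in ELS. The LPS-injected mice nevertheless differed widely among themselves. Mouse P200_5.3_CTR_LPS was the lowest of its group in Ccl2, Ccl7, Ccl12, Ccl3, Ccl4, Ccl5 and Ccl9, and without it all 7 genes were called again in CTR. Mouse P200_20.1_ELS_LPS was the highest of its group in Ccl7, Ccl12, Ccl3, Ccl4, Ccl5 and Ccl9, and mouse P200_11.2_ELS_LPS the lowest in Ccl2, Ccl7, Ccl12, Ccl3 and Ccl4. All 7 genes were called in ELS without either of them.

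Across the 12 LPS-injected mice, after the group means were taken out, log2 CPM of Ccl3 and Ccl4 had a Pearson r of 0.98 (Spearman rho 0.97), Ccl4 and Ccl9 of 0.94, and Ccl5 and Ccl9 of 0.95. For Ccl12 and Ccl4 r was 0.90, and for Ccl2 and Ccl7 0.86. In these 12 mice Ccl6 had r between -0.47 and -0.23 to each of the 7 genes that rose, with a Spearman rho of -0.04 to Ccl2. This was not particular to Ccl6. To the same genes r of Ccl25 was between -0.65 (Ccl9) and -0.35 (Ccl7), and that of Ccl24 between -0.27 (Ccl2) and 0.03 (Ccl5). At P9 the direction of Ccl6 was not the same. In the 25 P9 mice its r to the 7 genes was between 0.02 (Ccl5) and 0.73 (Ccl2), with mouse P9_19.2_ELS high in several of them. By Spearman's rho, these P9 values were between 0.03 (Ccl5) and 0.59 (Ccl2), with 0.08 for Ccl3 and 0.17 for Ccl12. In the 13 PBS-injected mice r was 0.945 for Ccl3 and Ccl4, but 0.09 for Ccl7 and Ccl12 and -0.62 for Ccl4 and Ccl9. Both values of a mouse come from 1 library and share its depth and cells, and they are given as a description.

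Markers of other myeloid cells were low in LPS- and PBS-injected mice. The summed level of 6 monocyte markers was 0.712 to 11.0 CPM after PBS and 0.878 to 8.35 CPM after LPS. The 7 neutrophil markers together reached at most 0.2725 CPM after PBS and after LPS at most 1.845 CPM in the CTR mice and 9.17 CPM in the ELS mice. Of these 7, 5 had a higher mean after LPS in ELS and 2 in CTR. The 7 T, NK and B cell markers together were at most 1.03 CPM. The 9 microglia markers together were at 77410 to 84690 CPM after PBS and 65890 to 82450 CPM after LPS. A list of 13 immediate-early and handling genes such as Fos, Egr1 and Nfkbia moved with LPS as well, from 693 to 992 CPM after PBS to 7510 to 14660 CPM, with 10 of its 13 genes higher in each condition. Its part in the result was not tested.

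The share of the chemokine reads shifted with LPS. After PBS the 10 genes together came to 923 ± 131 CPM (SD, n = 7) in CTR mice, and to 740.4 ± 131.6 CPM (n = 6) in ELS mice. After LPS they were at 5650 ± 2104 CPM (n = 7) in CTR and 6586 ± 2792 CPM (n = 5) in ELS. Ccl6 made up the largest share after PBS, at 33.1% in CTR and 37.3% in ELS, followed by Ccl4 in CTR (23.3%) and Ccl9 in ELS (28.2%). After LPS Ccl12 made up 48.1% in CTR and 45.6% in ELS, and Ccl4 24.7% and 27.7%. At P9 the sum was 616 ± 66.5 CPM (n = 12) in CTR and 673 ± 299 CPM (n = 13) in ELS, of which Ccl6 was 46.1% and 43.85%.

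**Figure D3:**
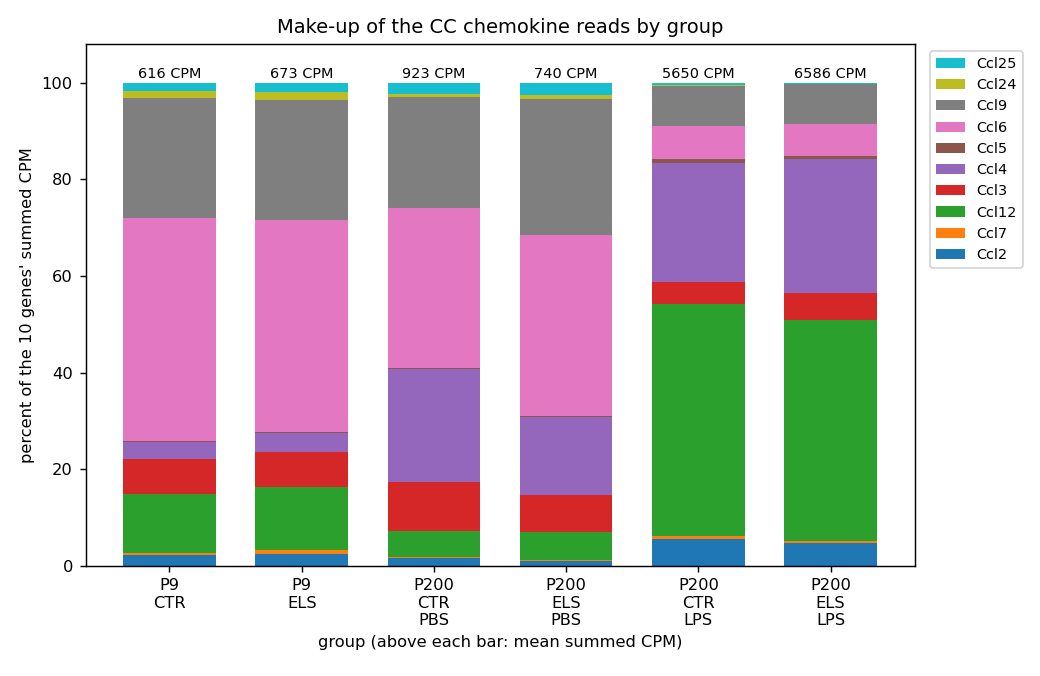
Percent of the summed CPM of the 10 genes that each gene holds (y axis) in the 6 groups (x axis), with the mean summed CPM above each bar. Ccl6 (pink) holds the largest part in the P9 and PBS groups, and Ccl12 (green) in both LPS groups, at 48.1% and 45.6%.

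Levels of different genes were compared per kb of the canonical transcript. In P9-CTR mice the order began with Ccl6 (197 ± 25.4 CPM per kb, SD, n = 12), Ccl12 (93.6 ± 25.2), Ccl3 (56.15 ± 11.3) and Ccl9 (51.0 ± 8.05), where Ccl3 and Ccl9 overlapped in their spread. Ccl4 followed at 33.05 ± 7.13 CPM per kb, and Ccl5 was last at 1.29 ± 0.885. In CTR-PBS mice Ccl4 came first (324 ± 139.8 CPM per kb, n = 7), ahead of Ccl6 (209 ± 30.0) by less than its SD, with Ccl3 (124 ± 49.75), Ccl9 (69.2 ± 5.63) and Ccl12 (63.2 ± 20.9) next. In ELS-PBS mice Ccl4 (189 ± 135.1 CPM per kb, n = 6) and Ccl6 (188 ± 11.35) did not differ beyond their spread. In CTR-LPS mice Ccl12 (3539 ± 1583 CPM per kb, n = 7) and Ccl4 (2021 ± 785.6) led, and Ccl2 (357.5 ± 89.4) and Ccl3 (345.5 ± 175.4) did not differ beyond their spread. Ccl24 was last after LPS, at 3.425 ± 0.494 CPM per kb. For Ccl25 the length is uncertain, because its annotated exons extend into a neighbouring gene.

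With age, Ccl4 was higher at P200 than at P9 in both conditions, and the other members changed less. The PBS-injected P200 mice were compared with the uninjected P9 mice of the same condition. In CTR, Ccl4, Ccl3 and Ccl25 were called higher and none lower, where 7.98% of all tested genes were called higher and 18.5% lower. In ELS, Ccl4 was called higher, and the CCR2 ligand genes Ccl2, Ccl7 and Ccl12 lower, where 8.68% of all tested genes were called higher and 17.5% lower. The median log2 fold change of the 10 genes was 0.26 in CTR, against -0.09 over all genes tested, and 0.08 in ELS, against -0.01.

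Ccl4 was between 16.2 and 31.9 CPM (median 23.5) in P9-CTR and between 12.9 and 41.8 CPM (median 23.6) in P9-ELS mice, against the PBS values given for P200. In CTR the groups did not overlap, and the log2 fold change was 3.29 (SE 0.29, adjusted p = 2.25e-13 in edgeR's quasi-likelihood test), a 9.80-fold difference. In ELS it was 2.41 (SE 0.29, adjusted p = 1.65e-09), and the lowest ELS-PBS mouse, P200_4.1_ELS_PBS, lay within the range of the P9-ELS mice at 25.1 CPM. Ccl4 was the only member with separate groups and a higher level at P200 in CTR, and no member had this in ELS. Of all tested genes, 6.56% had it in CTR and 4.60% in ELS.

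Ccl3 was between 28.3 and 59.4 CPM (median 43.3) in P9-CTR mice and rose to the CTR-PBS values given for LPS, with a log2 fold change of 1.14 (SE 0.33, adjusted p = 0.00436 in edgeR's quasi-likelihood test). Without mouse P200_5.1_CTR_PBS its log2 fold change was 0.99 (adjusted p = 0.0191) and it was no longer called. With counts summed per inferred nest it was 0.95 (adjusted p = 0.16), which passed neither criterion. In ELS, where P9 mice had 30.6 to 107.5 CPM (median 42.0), the log2 fold change of Ccl3 was 0.32 (95% interval -0.38 to 1.02, adjusted p = 0.493). Ccl25 went from 5.52 to 16.9 CPM (median 9.28) in P9-CTR to 13.6 to 31.9 CPM (median 21.3) in CTR-PBS mice, a log2 fold change of 1.12 (SE 0.21, adjusted p = 2.48e-05). In ELS it was 0.69 (SE 0.22, adjusted p = 0.00947), which passed the adjusted p but not the fold change. Elavl1, whose exons it overlaps, had a log2 fold change of -0.02 in CTR and 0.30 in ELS.

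The 3 CCR2 ligand genes were lower at P200 in ELS. Ccl2 was between 7.61 and 71.8 CPM (median 14.4) in P9-ELS mice, and its log2 fold change was -1.325 (SE 0.30, adjusted p = 0.00035 in edgeR's quasi-likelihood test). The change of Ccl7 was -1.54 (SE 0.44, adjusted p = 0.00405), from 2.38 to 25.6 CPM (median 4.36) at P9, and that of Ccl12 -1.15 (SE 0.31, adjusted p = 0.00246), from 49.8 to 335.6 CPM (median 71.7). These calls rest in part on mouse P9_19.2_ELS, which held the highest value of each. Without it the log2 fold change was -0.93 for Ccl2 (adjusted p = 0.000352), -1.04 for Ccl7 (adjusted p = 0.0162) and -0.80 for Ccl12 (adjusted p = 0.00686), and 2 members were called in place of 4, namely Ccl4 and Ccl7. In CTR the log2 fold changes were 0.00 for Ccl2 (95% interval -0.55 to 0.55), -0.70 for Ccl7 (adjusted p = 0.163) and -0.565 for Ccl12 (adjusted p = 0.111). Without mouse P200_1.1_CTR_PBS, which had the highest Ccl2 and Ccl7 of its group, that of Ccl7 in CTR was -1.06 (adjusted p = 0.0411) and 4 members were called.

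Several smaller differences passed the adjusted p alone. Ccl9 had log2 fold changes of 0.44 (adjusted p = 0.00255, edgeR's quasi-likelihood test) for CTR mice and 0.34 (adjusted p = 0.0227) in ELS, with P9 medians of 157 and 154 CPM. Ccl24 had -0.71 (adjusted p = 0.00862) and -0.955 (adjusted p = 0.00104), from P9 medians of 8.42 and 9.50 CPM, and in ELS its groups did not overlap, with P9 higher. Without mouse P200_17.1_ELS_PBS, P200_17.2_ELS_PBS or P200_20.2_ELS_PBS its log2 fold change in ELS was -1.01, -1.04 or -1.05, and it was called lower, as it was with counts summed per inferred nest (-1.08, adjusted p = 0.00583). Groups without overlap and with P9 higher were found for 10.5% of all tested genes in CTR and 7.03% in ELS. Counting by the adjusted p alone, 5 members passed in CTR and 7 in ELS, against 44.1% and 42.2% of all tested genes. Ccl5 and Ccl6 passed in neither, with Ccl6 at P9 medians of 287 CPM (CTR) and 273 CPM (ELS) and log2 fold changes of 0.08 and -0.15.

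**Figure D4:**
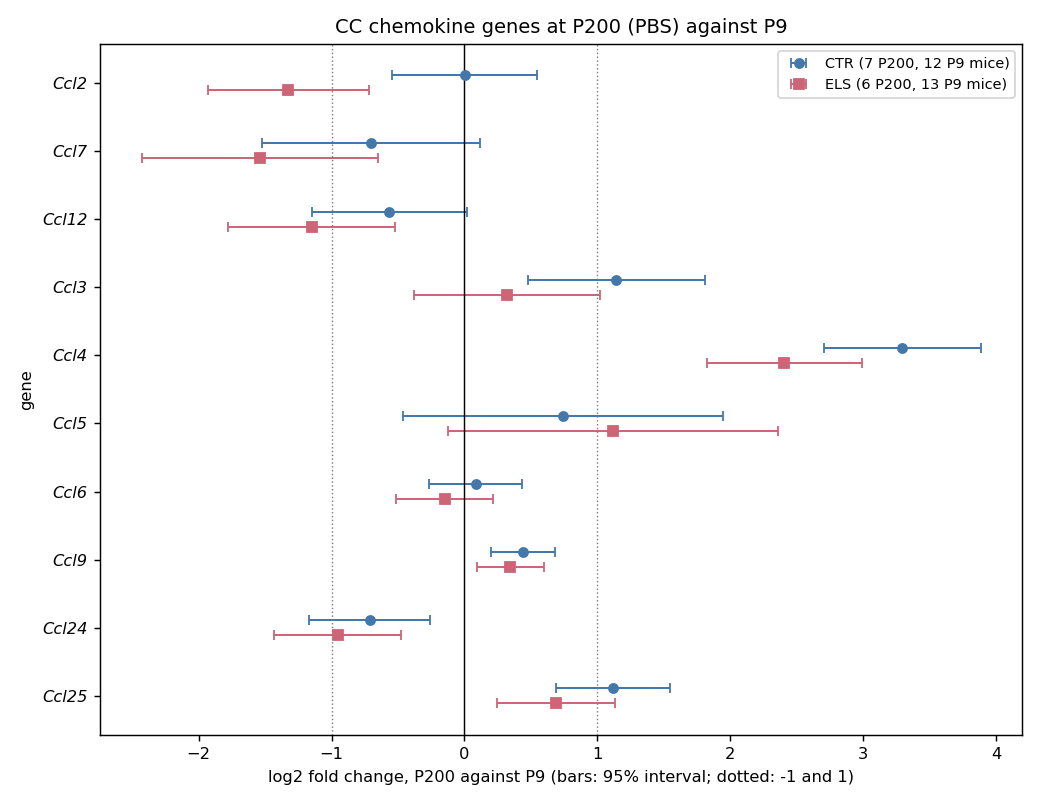
Log2 fold change at P200 (PBS) against P9 of each gene (y axis) in CTR (blue circles) and ELS mice (red squares), with 95% intervals from edgeR's quasi-likelihood fit and dotted lines at -1 and 1. Ccl4 lies at 3.29 and 2.41, and the ELS values of Ccl2, Ccl7 and Ccl12 lie between -1.54 and -1.15.

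Age, Percoll and the injection came together in these groups and cannot be told apart. The 7 border-associated macrophage markers together were at 476 to 921 CPM at P9 and 2.84 to 10.6 CPM in PBS-injected P200 mice. All 7 were lower on average at P200 in both conditions. The sum at P9 was mostly Mrc1, whose range at P9 is given above, so that its size says little about the other markers. The 4 astrocyte markers were at 51.7 to 200.5 CPM at P9 and 0.0509 to 14.4 CPM after PBS, and the 4 neuron markers at 14.7 to 119 CPM and 2.49 to 11.6 CPM, each with 4 of 4 genes lower at P200. The immediate-early list was at 85.8 to 614 CPM at P9 and 693 to 992 CPM after PBS, with 11 of 13 genes higher at P200 in CTR and 10 in ELS. The part of these genes and cells in the chemokine differences was not tested.

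Between ELS and CTR mice none of the 10 genes passed the test at P9, after PBS or after LPS. The model took each mouse as a replicate, without a nest term, although ELS was given to whole litters. Its intervals for ELS can therefore be too narrow and its p-values too small. Over all tested genes 0.00% were called at P9, 0.156% after PBS and 0.00% after LPS. At an unadjusted p under 0.05, 1 member passed at P9, 2 after PBS and 0 after LPS, where 5.47%, 9.71% and 4.78% of all tested genes did. The median log2 fold change of the 10 genes was 0.19 at P9, -0.17 after PBS and 0.23 after LPS, against 0.00, 0.01 and -0.01 over all tested genes.

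At P9, Ccl7 was at 3.20 ± 1.19 CPM (SD, n = 12) in CTR and 5.69 ± 6.10 CPM (n = 13) in ELS mice, with a log2 fold change of 0.83 (95% interval 0.16 to 1.5) which had an adjusted p = 0.897 (edgeR, quasi-likelihood). Mouse P9_19.2_ELS was at 25.6 CPM and the other 12 between 2.38 and 5.75 CPM. The same mouse had the highest Ccl2 (71.8 CPM, others 7.61 to 24.4), Ccl12 (335.6 CPM, others 49.8 to 107.9), Ccl3 (107.5 CPM, others 30.6 to 67.3), Ccl6 (797 CPM, others 146 to 318), Ccl9 (236 CPM, others 117 to 174) and Ccl24 (23.5 CPM, others 7.95 to 15.23). Without it the log2 fold change of Ccl7 was 0.33 and that of Ccl2 0.02. Its Ccl4, Ccl5 and Ccl25 were within the range of the others.

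After PBS, Ccl2 and Ccl4 had the largest differences between ELS and CTR. For Ccl2 the CTR-PBS mean was 13.9 ± 4.15 CPM (SD, n = 7) and the ELS-PBS mean 7.41 ± 2.24 CPM (n = 6), a log2 fold change of -0.91 (95% interval -1.56 to -0.26, adjusted p = 0.251 in edgeR's quasi-likelihood test). The ELS-PBS mice reached from 4.91 to 10.4 CPM and overlapped the lower CTR-PBS mice. The means of Ccl4 were 223 ± 96.0 CPM (CTR) and 130.1 ± 92.8 CPM (ELS) (log2 fold change -0.78, 95% interval -1.47 to -0.08, adjusted p = 0.418), and those of Ccl3 96.2 ± 38.6 and 61.0 ± 44.0 CPM (log2 fold change -0.66, adjusted p = 0.653). Mouse P200_4.1_ELS_PBS was the lowest of all PBS-injected mice in Ccl2, Ccl3, Ccl4 and Ccl7. Without it the log2 fold changes were -0.81 for Ccl2, -0.56 for Ccl4 and -0.43 for Ccl3. After LPS the largest was that of Ccl3, at 0.70 (95% interval -0.13 to 1.53, adjusted p = 1.0), and without mouse P200_20.1_ELS_LPS it was 0.06.

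**Figure D5:**
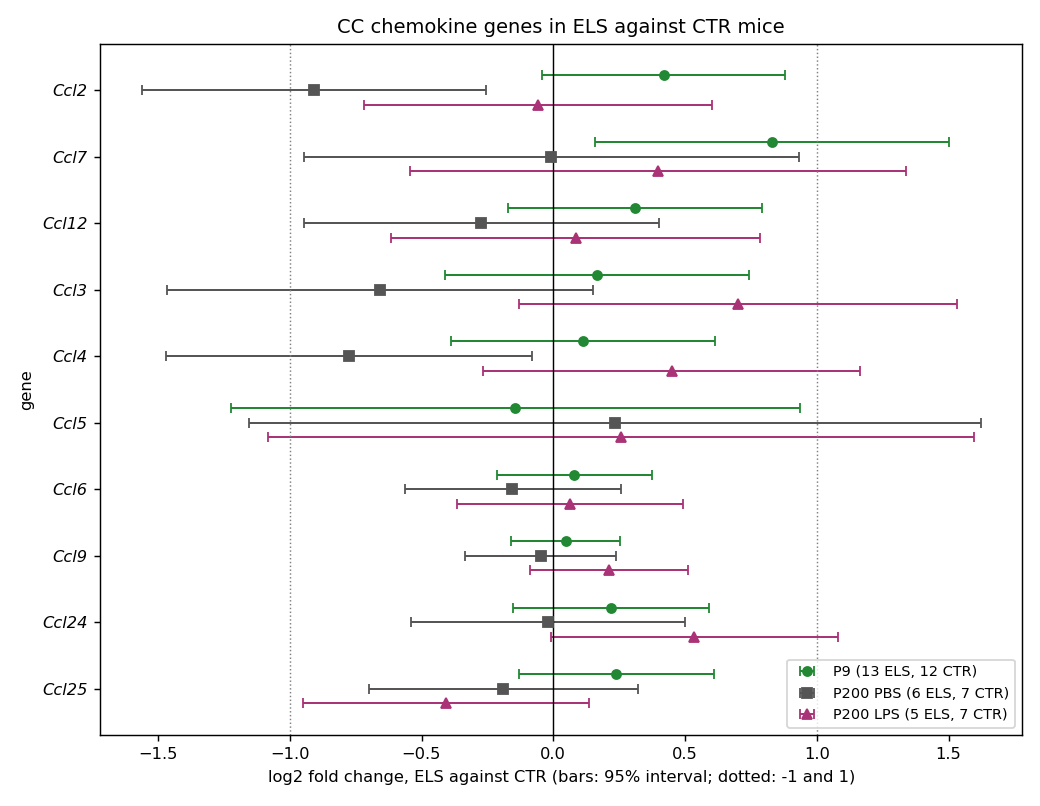
Log2 fold change in ELS against CTR mice of each gene (y axis) at P9 (green circles), after PBS (grey squares) and after LPS (purple triangles), with 95% intervals from edgeR's quasi-likelihood fit and dotted lines at -1 and 1. Most intervals include 0, with Ccl2 at -0.91 and Ccl4 at -0.78 after PBS and Ccl7 at 0.83 at P9 outside it. The intervals take each mouse as a replicate, without a nest term.

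Whether ELS altered the response to LPS or the difference with age was tested by interaction terms, which called none of the 10 genes. These terms too took each mouse as a replicate, without a nest term. Of all tested genes 0.00% were called for ELS and LPS, and 5.87% had an unadjusted p under 0.05, as had 2 members. They were Ccl4, with a log2 difference of 1.225 (95% interval 0.23 to 2.22, adjusted p = 0.676 in edgeR's quasi-likelihood test), and Ccl3, with 1.36 (95% interval 0.20 to 2.52, adjusted p = 0.722). Without mouse P200_20.1_ELS_LPS these were 0.84 and 0.71. For ELS and age 0.0299% of all tested genes were called and 10.3% had an unadjusted p under 0.05, again with 2 members among them. They were Ccl2, with a log2 difference of -1.33 (95% interval -2.13 to -0.53, adjusted p = 0.26), and Ccl4, with -0.89 (95% interval -1.74 to -0.03, adjusted p = 0.471). Without mouse P9_19.2_ELS that of Ccl2 was -0.93 (adjusted p = 0.246). The PBS-injected mice enter the comparisons with age, with LPS and with ELS alike, so that these results are not independent of each other.

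The receptors of these ligands were read in the same libraries. Of 11 CC receptor genes 8 were tested, and 3 were called higher after LPS in each condition and none lower. They were Ccr1, the receptor of Ccl3, Ccl5, Ccl6 and Ccl9, with a log2 fold change of 1.21 (SE 0.24) in CTR and 1.65 (SE 0.27) in ELS, Ccrl2, a receptor that binds chemerin without signalling, with 2.69 (SE 0.29) and 3.26 (SE 0.32), and Ccr7. Ccr7, which guides antigen-presenting cells to lymph nodes, was at 1.57 to 28.5 CPM in CTR-LPS mice and at most 0.0389 CPM in CTR-PBS mice. Its group means were at most 0.0922 CPM at P9 and 0.0905 CPM after PBS. The filter counted all mice, so that Ccr7 was tested because of the LPS-injected mice. Its call, and the count of 3 with it, are therefore not independent of the filter. Ccr2, the receptor of the Ccl2 group, was at most 6.795 CPM after LPS, and Ccr9, that of Ccl25, at most 2.11 CPM in any P200 mouse.

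With age, Ccr2, Ccr3 and Ccrl2 were called higher and Ccr1 lower in CTR, and Ccr2 and Ccrl2 higher and Ccr1 lower in ELS. Ccr1 fell by 1.05 in CTR (adjusted p = 0.000114 in edgeR's quasi-likelihood test) and by 1.44 in ELS (adjusted p = 1.96e-06) on the log2 scale. Ccr2 had log2 fold changes of 2.67 and 2.555 at low levels, with CTR means of 0.847 CPM at P9 and 5.44 CPM after PBS. Of the 4 atypical receptor genes, which bind chemokines without G protein signalling, 2 were tested, and Ackr3 was called lower with age in CTR. No receptor was called between ELS and CTR or by an interaction.

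Of 11 other CC ligand genes only Ccl22 and Ccl27a passed the filter. Ccl22, which attracts regulatory T cells through CCR4, was called higher after LPS in CTR (log2 fold change 4.23, SE 1.399, adjusted p = 0.0311 in edgeR's quasi-likelihood test) and in ELS (5.41, SE 1.60, adjusted p = 0.0172). It was at most 1.401 CPM after PBS and between 0.00 and 10.7 CPM in CTR-LPS mice, so that the groups overlapped. Its group means were at most 0.184 CPM at P9 and 0.200 CPM after PBS. The filter counted all mice, so that a gene this low elsewhere can pass it mainly through the LPS-injected mice. The call of Ccl22 is therefore not independent of the filter. Ccl27a was not called in any comparison and has near-identical copies in the genome, which makes its counts uncertain. All 11 together reached at most 3.835 CPM after PBS and 25.2 CPM after LPS.

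For each of the 10 genes, the most similar patterns over the 25 P200 mice were sought by Spearman's rho of log2 CPM among 10964 genes outside the set. Ccl4 was most like Cd83 (rho 0.965) and Gem (0.962), Ccl12 like Plaur (0.955) and Ch25h (0.945), and Ccl5 like Cdc42ep2 (0.946) and Sod2 (0.942). Ccl3 was most like Sdc4 (0.936) and Slc2a1 (0.922), Ccl9 like Srgn (0.936) and Map2k3 (0.935), Ccl2 like Mcl1 (0.923) and Nip7 (0.918), and Ccl7 like Nfyb (0.923) and Slc35f5 (0.922). For the genes that did not pass the test after LPS the likeness was lower, with Bcap29 (0.859) and Cetn2 (0.81) for Ccl6, Hdgf (0.732) and 2210406H18Rik (0.664) for Ccl24, and Zc3h4 (0.711) and Timmdc1 (0.702) for Ccl25. These values are over LPS- and PBS-injected mice together, so that any gene that moves with LPS scores high beside another.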

How the data were processed

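RNA of sorted hippocampal microglia was sequenced in 50 mice, 1 library per mouse. The authors trimmed reads with cutadapt (version 2.10 in the submitters' processing notes), aligned them to GRCm39 with STAR, counted unique exonic reads per gene with HTSeq (0.11.0) and deposited raw counts. The strand setting and annotation release are not given in the sources used here. A gene was kept where more than 2 mice reached 1 CPM (16696 genes). Counts were normalized by TMM and tested with edgeR 4.0.16 (quasi-likelihood, R 4.3.3) over 6 group means, with Benjamini-Hochberg adjustment over all genes kept. CPM are TMM-scaled, and log2 CPM used a prior count of 2. On simulated data with 200 of 16696 genes changed by a log2 fold change of 2 (LPS against PBS in CTR), 159 (79.5%) were recovered with 5 false calls. Total counts were 5152838 to 42231258 per mouse and limit the precision of low genes such as Ccl5 and Ccl7. All 10 members are named, and genes outside them by fixed lists, by a call in an LPS or age comparison, or by likeness. Ccr9, Ccl27a and Elavl1 were added after their values were seen. The members and lists were chosen with earlier results of these data known. Alternatives were DESeq2 1.42.0, limma 3.58.1 voom with the nest (inferred from the number after the age in each label) as random effect, sums per nest, other filters, scalings and thresholds, and leaving out mice. Gene positions come from GENCODE vM39, where 52610 of 53700 genes were found.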

Additional observations from a re-analysis of the deposited data

Results flagged for a closer look

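Ccl12 in mouse P200_5.2_CTR_PBS was at 86.1 CPM, apart from the other mice of its group, which lay between 32.1 and 49.0 CPM. On the log2 CPM scale, the gap to the nearest mouse was 0.571 of the group's range, where Dixon's critical value for 7 samples is 0.568. Ccl12 in mouse P200_5.3_CTR_LPS was at 616 CPM, while the others of its group lay between 2321 and 4719 CPM. On the log2 CPM scale this was a gap of 0.651 of the range, against the same critical value. These were 2 of 40 groups of values tested in this way, and chance alone sets apart about 1 in 20. All 40 were from P200 mice. The P9 groups of 12 and 13 mice were not tested, so that mouse P9_19.2_ELS was outside this check. The log2 fold change of Ccl12 after LPS in CTR was 5.98 without the second and 5.985 without the first.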

How the results depend on the processing

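For single genes, 992 of 1020 values under other tests, filters, scalings, nest treatments and sets of mice kept their direction and side of the threshold, as did 1704 of 1760 when 1 mouse was left out. With an absolute log2 fold change threshold of 0.1, 5 members were called with age in CTR and 7 in ELS. By that rule 2911 of all 16696 tested genes were called higher and 4445 lower in CTR. In ELS these were 2863 and 4182, so that the members were near the share over all genes in CTR. Leaving out 1 mouse gave 6 to 7 calls after LPS in CTR, 2 to 4 with age in CTR and 2 to 5 with age in ELS. The 2 calls in ELS came without mouse P9_19.2_ELS, where 1451 of all genes were called higher and 2828 lower. Shares over all genes in the main fit are given with each comparison above. Without the 3 mice with the fewest genes, the ELS differences at P9 were -0.002 for Ccl12 and -0.080 for Ccl6, that of Ccl7 after PBS 0.336, the age differences -0.093 for Ccl2 in CTR and 0.009 for Ccl6 in ELS, and the interaction with age of Ccl7 0.029. Ccl5 in ELS then passed with age (1.74, adjusted p = 0.00953 in edgeR's quasi-likelihood test). Under voom Ccl6 at P9 was -0.003, Ccl3 with age in ELS -0.167 and the LPS interaction of Ccl5 -0.728. Ccl5 at P9 was 0.014 in DESeq2 and with only the groups compared, where Ccl7 after PBS was 0.006. With counts summed per inferred nest Ccl5 at P9 was 0.048, Ccl9 after PBS was 0.001, Ccl9 after LPS in CTR 0.984, Ccl3 with age in CTR 0.95 (adjusted p = 0.16) and Ccl24 with age in ELS -1.08 (adjusted p = 0.00583), and 5 members were called after LPS in CTR. The cause was not tested.

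Leaving out 1 mouse turned these ELS differences: at P9 Ccl12 (-0.042 to 0.382), Ccl5 (-0.450 to 0.103), Ccl6 (-0.135 to 0.139) and Ccl9 (-0.013 to 0.082), after PBS Ccl7 (-0.451 to 0.345), Ccl5 (-0.133 to 0.718), Ccl9 (-0.145 to 0.010) and Ccl24 (-0.125 to 0.167), and after LPS Ccl2 (-0.153 to 0.080), Ccl12 (-0.115 to 0.254), Ccl5 (-0.297 to 0.524) and Ccl6 (-0.092 to 0.167). It also turned Ccl2 with age in CTR (-0.093 to 0.085), Ccl3 (-0.020 to 0.549) and Ccl6 (-0.210 to 0.064) with age in ELS, and the LPS interaction of Ccl5 (-0.532 to 0.390).

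With the number after the age in each label, read as the nest, as replicate block, 6 members were called after LPS in CTR, 7 in ELS and 0 by the interaction. Ccl9 in CTR was 0.958 (adjusted p = 0.000139). The correlation of deviations of same-numbered mice ran from -0.041 to 0.084 over 10 numbers, so that over all genes they shared little. This cannot decide whether same-numbered mice came from 1 nest.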
